A study of Mus musculus with 6 samples.

Results

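The genes described here were a panel of reactive astrocyte genes, measured as mRNA in the prefrontal cortex of aged mice after anesthesia and surgery. The panel was fixed by name and held 10 mouse symbols (Gfap, Vim, Serpina3n, Lcn2, Cd44, Osmr, S1pr3, Steap4, Aspg and Timp1), of which 9 were matched by Ensembl identifier among the 21006 genes of the processed files. Timp1 was not analysed here. All 6 animals were wild-type male C57BL/6 mice. The age label gives 18 months, while the sample titles carry 17M, which the labels do not explain. The PND group (n = 3) was the model of postoperative neurocognitive disorder, in which isoflurane anesthesia was combined with an exploratory laparotomy, and lidocaine cream and povidone iodine were put on the wound. The CON group (n = 3) received neither the anesthesia nor the operation. Both groups went through the same behavioral tests, and per the methods of the study all mice were deeply anesthetized with isoflurane before the tissue was taken, after the last Barnes maze session. The anesthesia and the operation were given together, so their parts in any difference cannot be told apart.

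Astrocytes respond to injury, infection and inflammation by changing shape and gene expression, which is called reactive astrogliosis. Gfap and Vim encode intermediate filament proteins, and a rise in Gfap is the most widely used sign of the reactive state. Other genes of the panel encode secreted proteins (Serpina3n, Lcn2), surface receptors (Cd44, Osmr, S1pr3) and enzymes (Steap4, Aspg). Cytokines of the interleukin 6 family act through the shared receptor subunit gp130 (encoded by Il6st), the JAK kinases and the transcription factor STAT3, and this pathway drives much of the response. Many of these genes are also used by other cells of the brain, such as endothelial cells, fibroblasts and microglia.

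Gfap, the most abundant member, was higher in PND, by 1.60-fold, at an unadjusted p below 0.05. Lcn2 also had an unadjusted p below 0.05, but it entered the test only through its PND values. It was detected at a low level in each PND sample and listed at 0 in each CON sample. Osmr was also higher in every PND sample than in any CON sample, by a smaller step that did not pass the test. Vim had nearly equal means, Serpina3n and S1pr3 overlapped, Cd44 had its mean on the CON side, and Steap4 and Aspg were near the limit of detection. No member passed the test after adjustment over all genes.

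The levels were FPKM, fragment numbers that the authors scaled for gene length and sequencing depth, so that levels can be set side by side between genes. The groups were compared in limma on the log2(FPKM + 0.1) scale. The fit took in 18185 genes whose average over the 6 samples reached 0.1 FPKM. All log2 fold changes are on that scale, on which differences of low genes come out smaller than they are. Of the 9 members, 7 were tested and 2 (Steap4 and Aspg) were below the filter. Of the 7 tested members, 2 had an unadjusted p below 0.05, both higher in PND, against 3.13% of all genes tested (1.73% higher and 1.4% lower). The cut-off of the study, an absolute fold change above 2 with an unadjusted p below 0.05, was passed by 1 member, Lcn2, against 1.33% of all genes (0.841% higher and 0.484% lower). All 3 PND samples lay above all 3 CON samples in 3 members, Gfap, Lcn2 and Osmr, against 3.78% of all genes. The reverse was seen in 0 members, against 3.88% of all genes, so that 7.66% of all genes had groups that did not overlap. The log2 fold change was above 0 in 6 of the 7 members, against 52.4% of all genes, and its median was 0.39, beside 0.01 over all genes. Lcn2 passed the filter only through its PND values, so a difference in it was bound to be seen. Without Lcn2, 1 of the other 6 members (Gfap) had an unadjusted p below 0.05, 0 passed the cut-off of the study in limma, 2 (Gfap and Osmr) had all PND samples above all CON samples, and the median was 0.37. When 1 sample was left out the median of the 7 lay between 0.34 and 0.60 and that of the 6 between 0.19 and 0.46, lowest without CON replicate 3 and highest without CON replicate 2 in both. These counts describe the panel and are not a test of it. In limma, 0 members had an adjusted p below 0.05 (Benjamini-Hochberg over all genes), against 0.011% of all genes. Each adjusted p of a member was 0.9999, and with voom on estimated fragments or any other alternative the smallest adjusted p of a member was 0.118.

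**Figure D1:**
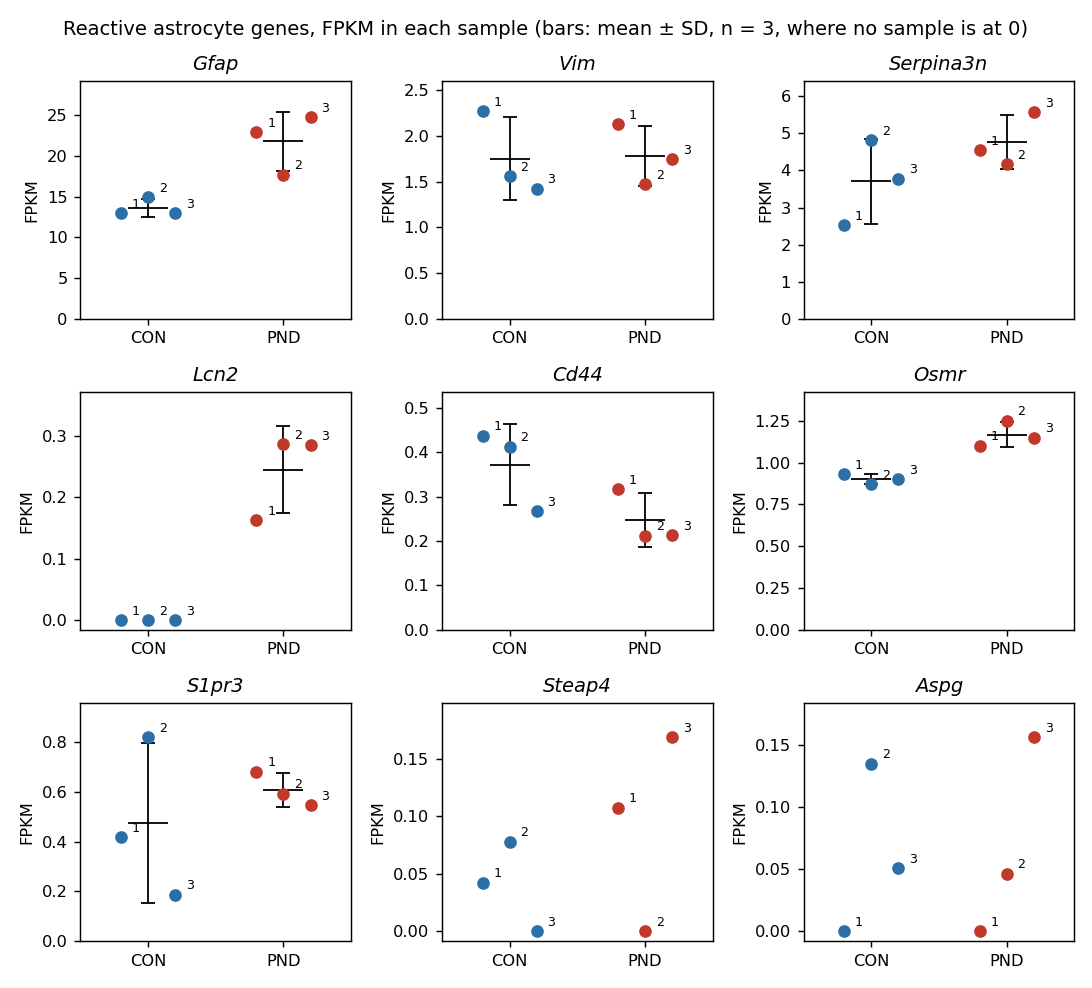
FPKM of each matched member (vertical axes, linear) in the 3 CON (blue) and 3 PND (red) samples, with the replicate number beside each point and bars for the mean and SD of groups without a value of 0. The PND points lie above all CON points for Gfap, Lcn2 and Osmr, and the groups overlap for the other 6 genes.

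Depth and tissue were checked before the members were compared. The depth was not given, and steps in the low values gave an effective depth between 7194900 and 9364950 fragments per sample, from which fragment numbers below are estimated. Neuron markers summed to between 1033 and 1111 FPKM per sample and homeostatic astrocyte markers to between 835 and 1162 FPKM, so both cell types of the labelled tissue were present. Of the choroid plexus markers, Ttr, the most defining, was at most 0.208 FPKM, and the 3 blood leukocyte markers analysed summed to at most 0.230 FPKM. Levels of GC-rich genes rose and fell between samples of the same group. In the tenth of genes with the highest GC content, the median deviation from the gene mean on the log2 scale was lowest in CON replicate 1 (-0.56) and highest in CON replicate 2 (0.49), and the PND samples lay between -0.30 and 0.37. The labels gave no sequencing batch, and each sample came from 1 animal, so p-values measure the spread between animals and libraries together.

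The promoter windows of the members were read from RefSeq (build GRCm38.p6), which held 1 window of 300 bases for each of the 10 listed symbols, 250 before and 50 after the annotated start. They were searched on both strands for TTCNNNGAA, the core of sites bound by STAT factors, and for TGANTCA. The latter is a loose form of the AP-1 core TGA(C/G)TCA and also takes in other letters at the middle base. A STAT core was found in 2 of the 10 windows, Gfap and Steap4, against 8.3% of all 32851 windows. TGANTCA was found in 1 of the 10, Osmr, against 7.81%. The Osmr match, TGATTCA, is not the AP-1 core itself. The windows of the members that passed the test are given from 250 bases before to 15 bases after the start, since these are the sequences beside which the mRNA levels can be read. The capitals mark the STAT core, and the Lcn2 window holds neither pattern. Gfap lies at chr11:102897186-102897450 and Lcn2 at chr2:32387725-32387989, both on the minus strand and printed 5′ to 3′ along the gene.
Gfap: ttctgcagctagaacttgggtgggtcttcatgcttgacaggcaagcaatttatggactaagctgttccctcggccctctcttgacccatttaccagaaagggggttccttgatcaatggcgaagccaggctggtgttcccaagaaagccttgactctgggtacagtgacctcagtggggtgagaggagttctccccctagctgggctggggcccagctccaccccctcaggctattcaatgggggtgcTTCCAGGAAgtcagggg
Lcn2: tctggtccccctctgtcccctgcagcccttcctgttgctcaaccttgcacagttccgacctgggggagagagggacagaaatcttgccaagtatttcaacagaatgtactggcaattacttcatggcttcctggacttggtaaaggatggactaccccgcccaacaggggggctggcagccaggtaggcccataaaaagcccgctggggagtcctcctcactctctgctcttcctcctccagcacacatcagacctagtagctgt
The remaining matches are shown with 10 bases on each side, as Steap4 (STAT core, chr5:7960346-7960374, plus strand, first base 116 bases before the start) and Osmr (TGANTCA match, chr15:6874294-6874320, minus strand, first base at position 4 after the start).
Steap4: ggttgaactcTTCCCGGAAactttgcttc
Osmr: gccccgtagtTGATTCAtagctggggc
A match is a description of the letters and was not tested for binding, and no match in a window says nothing about sites elsewhere.

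Among the filament genes, Gfap (ENSMUSG00000020932, chr11:102887336-102900912 in GRCm38, minus strand, protein-coding) had 22.9, 17.7 and 24.7 FPKM in PND replicates 1 to 3. In CON replicates 1 to 3 it had 13.0, 14.9 and 13.0 FPKM. The lowest PND sample was thus above the highest CON sample, and PND replicate 2 was the nearest to the CON range. The group levels were 21.8 ± 3.65 FPKM (SD, n = 3) in PND and 13.6 ± 1.10 FPKM (SD, n = 3) in CON. The log2 fold change was 0.66 (SE 0.15, 95% interval 0.31 to 1.02), with an unadjusted p of 0.00294 in limma. An estimated 2421.8 fragments lay behind the PND levels together and 1316.2 behind the CON levels. Gfap alone made up 71.7%, 68.8% and 71.5% of the summed FPKM of the 9 members in PND replicates 1 to 3. In CON replicates 1 to 3 that share was 66.2%, 63.2% and 66.3%, below each PND share. In bulk tissue, more cells of a type and more RNA per cell cannot be told apart, so a higher Gfap level may be read for the tissue only.

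Vim (ENSMUSG00000026728, chr2:13573927-13582826, plus strand) encodes vimentin, the filament partner of Gfap in reactive astrocytes, which endothelial and other vascular cells also make. It had 2.13, 1.47 and 1.75 FPKM in PND and 2.27, 1.56 and 1.42 FPKM in CON replicates 1 to 3. The groups overlapped fully, and replicate 1 was the highest in both. Its log2 fold change was 0.04 with a 95% interval of -0.55 to 0.63 (unadjusted p 0.886). The ratio of Gfap to Vim in the same sample was 10.8, 12.0 and 14.2 in PND and 5.71, 9.58 and 9.13 in CON. Every PND ratio was above every CON ratio, at 12.3 ± 1.72 against 8.14 ± 2.11 (SD, n = 3 each). The exact two-sided permutation p was 0.1, the smallest that 3 against 3 samples can give. Gfap itself separated the groups, and its ratio to 58.7% of 12354 other genes, those with a mean of 1 FPKM or more and no value of 0, did so in the same direction, so the separation is not particular to Vim. Nes, which encodes the filament protein nestin, ran the other way, with 0.899, 0.978 and 1.11 FPKM in PND and 1.19, 1.62 and 1.57 FPKM in CON, and did not pass the test (log2 fold change -0.50, unadjusted p 0.0645). Nes was picked for mention with its values known. Synm, which encodes the filament protein synemin, had a log2 fold change of -0.09 (unadjusted p 0.526). Of the 7 tested genes of the astrocyte cytoskeleton list, 1 passed the test, Ezr, which encodes ezrin, a linker of the membrane to actin in the fine processes of astrocytes. Ezr had 22.4, 21.8 and 24.5 FPKM in PND and 16.5, 19.0 and 17.8 FPKM in CON, and its fitted log2 change was 0.36 (SE 0.11, unadjusted p 0.0125). The median of that list was -0.09.

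Among the secreted proteins, Lcn2 (ENSMUSG00000026822, chr2:32384633-32388252, minus strand) encodes lipocalin 2, an iron-siderophore binding protein that astrocytes, endothelial cells and neutrophils release in inflammation. It had 0.163, 0.286 and 0.285 FPKM in PND replicates 1 to 3, an estimated 3.8, 5.9 and 7.0 fragments. It was listed at 0 in all 3 CON samples. A count of 0 allows up to 3 fragments per library, which for Lcn2 is 0.153, 0.141 and 0.159 FPKM in CON replicates 1 to 3, so PND replicate 1 was close to the level that CON samples could hold unseen. These limits cover counting error only. No fold is given against a group listed at 0. The fitted difference was 1.76 on the log2(FPKM + 0.1) scale (SE 0.42, unadjusted p 0.00352), and it depends on the pseudocount, being 0.31 with a pseudocount of 1 and 4.63 with 0.01. Since Lcn2 entered the test only through its PND values, its p is no support for a difference. Slc22a17, which encodes a receptor proposed for lipocalin 2, ranged from 5.18 to 14.4 FPKM in PND and from 3.78 to 15.2 FPKM in CON and overlapped fully. The blood leukocyte markers analysed summed to 0.230, 0.0270 and 0.0970 FPKM in PND and 0.0475, 0.0612 and 0.214 FPKM in CON, and S100a8 and the other 2 were each below the filter.

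Serpina3n (ENSMUSG00000021091, chr12:104406729-104414329, plus strand) encodes a secreted serine protease inhibitor and is among the most strongly induced astrocyte genes in injury. It had 4.55, 4.17 and 5.57 FPKM in PND and 2.52, 4.82 and 3.77 FPKM in CON. CON replicate 2 was above 2 of the 3 PND samples, and CON replicate 1 was the lowest of all. The log2 fold change was 0.39 (SE 0.25, 95% interval -0.20 to 0.98, unadjusted p 0.164). Without CON replicate 2 it was 0.60 with an unadjusted p of 0.0406, and without CON replicate 1 it was 0.15 with an unadjusted p of 0.49. Leaving out CON replicate 2 was the only omission of 1 sample that changed the call. Its transcript shares 6.9% of its stretches of 50 bases with 7 other genes of the Serpina3 cluster, and reads may have been divided between them. No other matched member shared a stretch of 50 bases with another gene.

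Among the receptors, Osmr (ENSMUSG00000022146, chr15:6813577-6874969, minus strand) encodes the receptor for oncostatin M, which pairs with gp130. It had 1.10, 1.25 and 1.15 FPKM in PND and 0.930, 0.872 and 0.901 FPKM in CON. The groups did not overlap and both were narrow, at 1.17 ± 0.0759 against 0.901 ± 0.0288 FPKM (SD, n = 3 each), a 1.30-fold step. The log2 fold change was 0.34 (SE 0.22, 95% interval -0.16 to 0.85) with an unadjusted p of 0.157. The limma fit takes much of the error of a gene from genes of like level. Without the intensity trend of the fit the unadjusted p was 0.0462, and with voom on estimated fragments it was 0.0631.

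Cd44 (ENSMUSG00000005087, chr2:102811141-102901665, minus strand) encodes the receptor for hyaluronan and osteopontin. It had 0.316, 0.212 and 0.213 FPKM in PND and 0.437, 0.412 and 0.267 FPKM in CON. It was the only tested member with a mean below that of CON, and PND replicate 1 lay above CON replicate 3. The log2 fold change was -0.44 (SE 0.34, 95% interval -1.24 to 0.37, unadjusted p 0.244), on 43.8 fragments over PND and 57.9 over CON. Spp1, which encodes osteopontin, and Has2, which encodes a hyaluronan synthase, had log2 fold changes of 0.22 (unadjusted p 0.464) and 0.39 (unadjusted p 0.368).

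S1pr3 (ENSMUSG00000067586, chr13:51408639-51422797, plus strand) encodes a receptor for sphingosine 1-phosphate. It had 0.681, 0.592 and 0.546 FPKM in PND and 0.417, 0.821 and 0.186 FPKM in CON. The PND samples were close together, while the CON samples spanned a range that held all of them. The log2 fold change was 0.45 (SE 0.45, 95% interval -0.60 to 1.51, unadjusted p 0.345). It was 0.03 without CON replicate 3 and 0.87 without CON replicate 2, and neither passed the test. Its exons overlap those of the non-coding gene Gm32834 on the opposite strand over 45 bases. S1pr1, which encodes another sphingosine 1-phosphate receptor of astrocytes and endothelium, had a mean of 30.9 FPKM in PND, against 0.606 FPKM for S1pr3.

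Among the enzymes, Steap4 (ENSMUSG00000012428, chr5:7960457-7982213, plus strand), a metalloreductase, had 0.108, 0 and 0.169 FPKM in PND and 0.0423, 0.0778 and 0 FPKM in CON. These were an estimated 8.0 fragments in PND and 3.0 in CON altogether. Aspg (ENSMUSG00000037686, chr12:112106679-112127559, plus strand), an asparaginase, had 0, 0.0463 and 0.156 FPKM in PND and 0, 0.135 and 0.0509 FPKM in CON, about 6.4 and 5.2 fragments. Neither gene was tested in the reported fit, and with so few fragments a difference may go unseen. With no filter on low values their unadjusted p-values were 0.425 and 0.956.

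**Figure D2:**
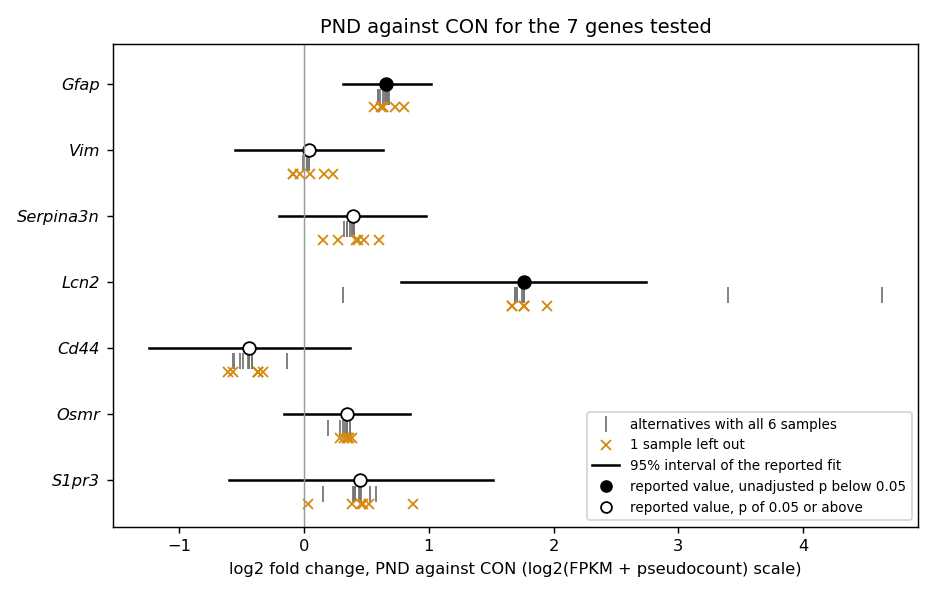
Log2 fold change of PND against CON (horizontal axis) for the 7 members tested, with the 95% interval of the reported fit, ticks for the alternatives that keep all 6 samples and crosses for fits without 1 sample. Filled circles mark the 2 members with an unadjusted p below 0.05, Gfap at 0.66 and Lcn2 at 1.76, and the ticks of Lcn2 run from 0.31 to 4.63 with the pseudocount.

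The levels of the matched members ran in the order Gfap, Serpina3n, Vim, Osmr, S1pr3, Cd44, Lcn2, Steap4 and Aspg by the mean over all 6 samples, from 17.7 FPKM for Gfap to 0.0647 FPKM for Aspg. Gfap stood above all other members in each sample. Serpina3n was above Vim and Vim above Osmr in every sample, whereas S1pr3 and Cd44 changed places in 2 CON samples. Lcn2 lay above Cd44 in PND replicates 2 and 3, at 0.286 and 0.285 against 0.212 and 0.213 FPKM. The 3 lowest genes overlapped within a few fragments. The sum of the 8 members other than Gfap was 9.04, 8.03 and 9.84 FPKM in PND and 6.62, 8.69 and 6.60 FPKM in CON, and CON replicate 2 lay within the PND range.

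Gfap was next set against genes of resting astrocytes, to see whether it moved with them. The 15 genes of the homeostatic astrocyte list code for glutamate uptake, water and potassium channels, gap junctions and other functions of unreactive astrocytes. Of these, 1 was higher and 1 lower in PND at an unadjusted p below 0.05, and the list had a median log2 fold change of 0.05. Aqp4, the water channel of astrocyte endfeet, had 25.6, 21.5 and 24.8 FPKM in PND and 34.5, 26.8 and 31.3 FPKM in CON, and fell by 0.36 on the log2 scale (SE 0.13, unadjusted p 0.0275). Gjb6, a gap junction protein, had 12.2, 11.3 and 10.1 FPKM in PND and 6.81, 10.1 and 8.14 FPKM in CON, and rose by 0.43 (SE 0.17, unadjusted p 0.0373), with PND replicate 3 and CON replicate 2 at nearly the same level. The other genes of the list did not pass, with log2 fold changes from -0.39 for Fgfr3 (95% interval -1.67 to 0.88) to 0.63 for Ndrg2 (-0.16 to 1.43). Among the more abundant, Glul, the glutamine synthetase gene, had 0.23 (-0.05 to 0.50) and the glutamate transporter gene Slc1a3 had 0.05 (-0.19 to 0.29), whereas the other glutamate transporter gene, Slc1a2, had -0.09 with a wide interval (-1.47 to 1.30).

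The ratio of Gfap to a homeostatic gene was higher in each PND sample than in any CON sample for 10 of the 15 genes, and it overlapped for the other 5. The 10 of 15 was near the 58.7% over other genes given above and is no result about homeostatic genes. The ratio to Aqp4 was 0.897, 0.822 and 0.998 in PND and 0.377, 0.556 and 0.416 in CON. The ratio to Gja1 was 0.377, 0.314 and 0.392 in PND and 0.204, 0.254 and 0.206 in CON. For both the exact two-sided permutation p was 0.1, the smallest possible with 3 samples a group. The ratio to Aldh1l1, a pan-astrocyte enzyme, was 4.77, 5.23 and 5.04 in PND and 4.88, 3.17 and 3.71 in CON, and overlapped, with the lowest Aldh1l1 level of all samples, 2.66 FPKM, in CON replicate 1. The 15 ratios share their numerator and are not independent. When all values were expressed relative to the mean log2 level of the 15 homeostatic genes, the log2 fold change of Gfap was 0.61 with an unadjusted p of 0.0166.

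**Figure D3:**
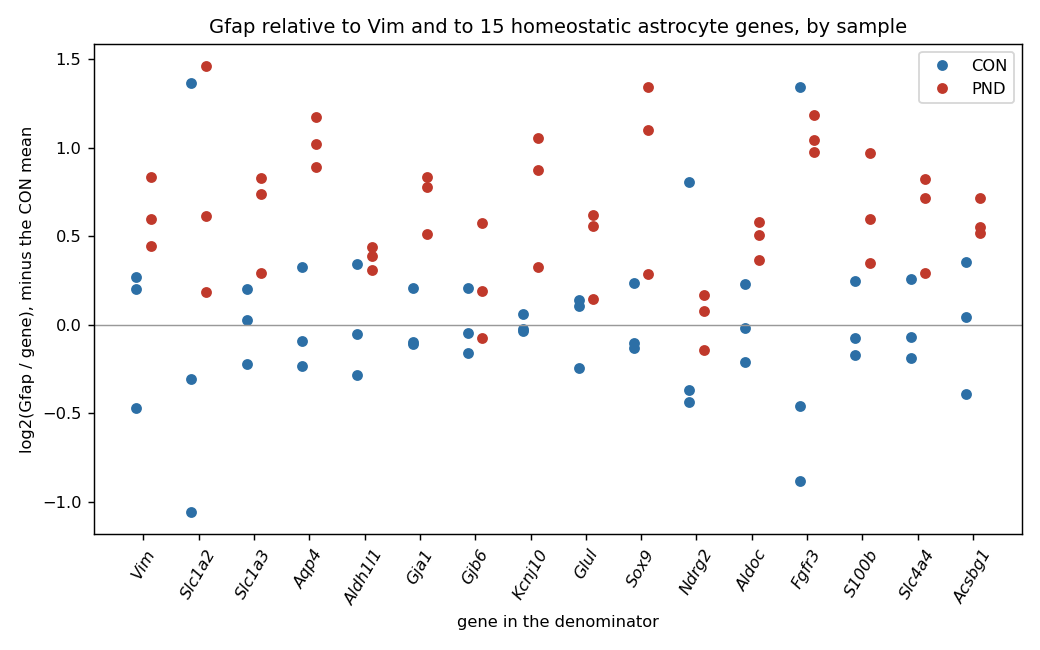
Log2 ratio of Gfap to Vim and to each of 15 homeostatic astrocyte genes (horizontal axis), minus the mean of the CON samples for that ratio, with 1 point per sample (CON blue, PND red). The red points lie above all blue points for Vim and for 10 of the 15 homeostatic genes, and the groups overlap for Slc1a2, Aldh1l1, Gjb6, Ndrg2 and Fgfr3.

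Because GC-rich genes moved between samples, the Gfap values were read again after correction for GC content. The longest Gfap transcript is 55.5% GC. The 884 genes within 1 percentage point of it had median deviations from the gene mean, on the log2 scale, of 0.09, -0.23 and 0.27 in PND replicates 1 to 3. In CON replicates 1 to 3 they had -0.40, 0.35 and -0.03. Gfap itself deviated by 0.42, 0.05 and 0.53 in PND and by -0.40, -0.20 and -0.40 in CON. After the correction Gfap was at 4.43, 4.39 and 4.37 in PND and at 4.12, 3.58 and 3.75 in CON on the log2(FPKM + 0.1) scale. The PND samples thus lay closer together than before and the CON samples further apart, with all PND samples above all CON samples, and the log2 fold change was 0.59 (unadjusted p 0.00408). For Serpina3n, with 51.9% GC, the corrected values were 2.15, 2.23 and 2.36 in PND and 1.59, 2.14 and 1.98 in CON, so the groups no longer overlapped but nearly touched (log2 fold change 0.34, unadjusted p 0.0808). Osmr, with 46.0% GC, was at 0.24, 0.45 and 0.34 in PND and at 0.01, -0.02 and 0.00 in CON after the correction, close to its values before. The correction was chosen with the GC dependence of these samples known.

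**Figure D4:**
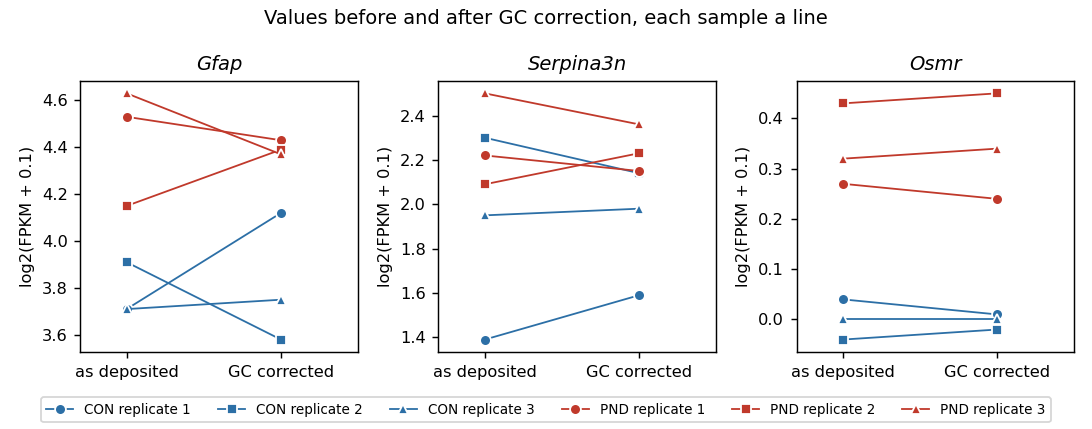
Log2(FPKM + 0.1) of Gfap, Serpina3n and Osmr (vertical axes, each to its own scale) as deposited and after GC correction, with 1 line per sample (CON blue, PND red). The 3 PND values of Gfap run from 4.15 to 4.63 as deposited and from 4.37 to 4.43 after correction.

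The signalling upstream of the panel was examined through fixed lists. Of the 16 genes of the gp130, JAK and STAT3 list, 12 were tested, 0 were higher and 1 was lower at an unadjusted p below 0.05, and the median log2 fold change was -0.01. The transducers Stat3 and Jak1 did not pass the test. Stat3 had 2.00, 1.92 and 1.95 FPKM in PND and 1.74, 2.42 and 1.89 FPKM in CON (log2 fold change -0.03, 95% interval -0.49 to 0.44). Jak1, at 21.1 to 24.4 FPKM in PND and 21.3 to 24.2 FPKM in CON, had a 95% interval of -0.26 to 0.26. Socs3, a feedback inhibitor that STAT3 induces, had 0.275, 0.231 and 0.356 FPKM in PND and 0.122, 0.187 and 0.423 FPKM in CON (log2 fold change 0.26, unadjusted p 0.568). The ligands Il6, Lif and Clcf1 were below the filter. The gene with that p was Cntf, an astrocyte cytokine, which was listed at 0 in all PND samples and in CON replicate 2 and stood at 4.35 and 0.777 FPKM in CON replicates 1 and 3 (unadjusted p 0.0492). Cntf passed the filter only through CON, with 35.0 of its estimated 41.0 fragments in CON replicate 1, and its exons overlap those of Zfp91 on the same strand over 847 bases. Its p is therefore no support for a lower level in PND.

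Of the 17 inducers and receptors of the IL-1, TNF, C1q and TGF-beta list, 15 were tested and 0 had an unadjusted p below 0.05 in limma, with a median log2 fold change of 0.28. The median was 0.12 without CON replicate 1, 0.12 with a pseudocount of 1 and 0.13 over genes averaging 1 FPKM or more. The smallest p was that of Tgfb1, a cytokine that acts on astrocytes and microglia. It had 0.832, 0.487 and 0.560 FPKM in PND and 0.234, 0.451 and 0.390 FPKM in CON (log2 fold change 0.67, SE 0.35, unadjusted p 0.0938). C1qa, a complement subunit made by microglia, ranged from 3.70 to 7.27 FPKM in PND and from 2.14 to 6.14 FPKM in CON. Il1b and Tnf were listed at 0 in 5 of the 6 samples, all but PND replicate 1.

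The panels that divide reactive astrocytes into types were read in the same way. In the neurotoxic-type (A1-type) panel, 11 of 12 genes were tested, 2 were higher and 0 lower at an unadjusted p below 0.05, and the median log2 fold change was 0.11. Fkbp5, which encodes a chaperone of the glucocorticoid receptor and is a common target of glucocorticoids, had 4.35, 3.62 and 3.58 FPKM in PND and 2.16, 2.44 and 2.17 FPKM in CON, and its fitted log2 change was 0.74 (SE 0.17, unadjusted p 0.0027). Fbln5, which encodes the elastic fibre protein fibulin 5, had 0.582, 0.521 and 0.749 FPKM in PND and 0.229, 0.253 and 0.262 FPKM in CON, and its fitted log2 change was 1.03 (SE 0.30, unadjusted p 0.0101). The members of this panel that serve antigen presentation, complement control and interferon responses did not pass. H2-D1 and Psmb8 had log2 fold changes of 0.12 and 0.07, and Serping1 and Iigp1 had -0.11 and -0.38. In the ischaemia-type (A2-type) panel, 6 of 12 genes were tested and 0 passed in limma, with a median of 0.01 and the smallest unadjusted p, 0.056, in Cd109. Of the 3 pan-reactive companions of the members, 2 were tested and 0 passed, and the nearest was the ferroxidase gene Cp, with 2.82, 2.16 and 2.22 FPKM in PND and 1.77, 1.57 and 2.07 FPKM in CON (log2 fold change 0.39, unadjusted p 0.097). Cxcl10 was at most 0.028 FPKM.

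Of the 14 ligands, partners and relatives of the members, 11 were tested, 1 was higher and 1 lower at an unadjusted p below 0.05, with a median of 0.22. Leaving out PND replicate 3 brought that median to -0.005, and leaving out CON replicate 1 brought it to 0.0025. Timp4, an inhibitor of matrix metalloproteinases of the Timp1 family, had 2.36, 2.15 and 2.38 FPKM in PND and 1.50, 1.64 and 1.54 FPKM in CON, and its fitted log2 change was 0.53 (SE 0.18, unadjusted p 0.0191). Its exons overlap those of Syn2 on the opposite strand over 90 bases. Timp2 and Timp3 had log2 fold changes of 0.30 (unadjusted p 0.0605) and -0.09 (unadjusted p 0.394). S1pr1 had 29.9, 30.0 and 32.9 FPKM in PND and 41.0, 41.6 and 33.8 FPKM in CON, and fell by 0.32 on the log2 scale (SE 0.12, unadjusted p 0.028). 

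**Figure D5:**
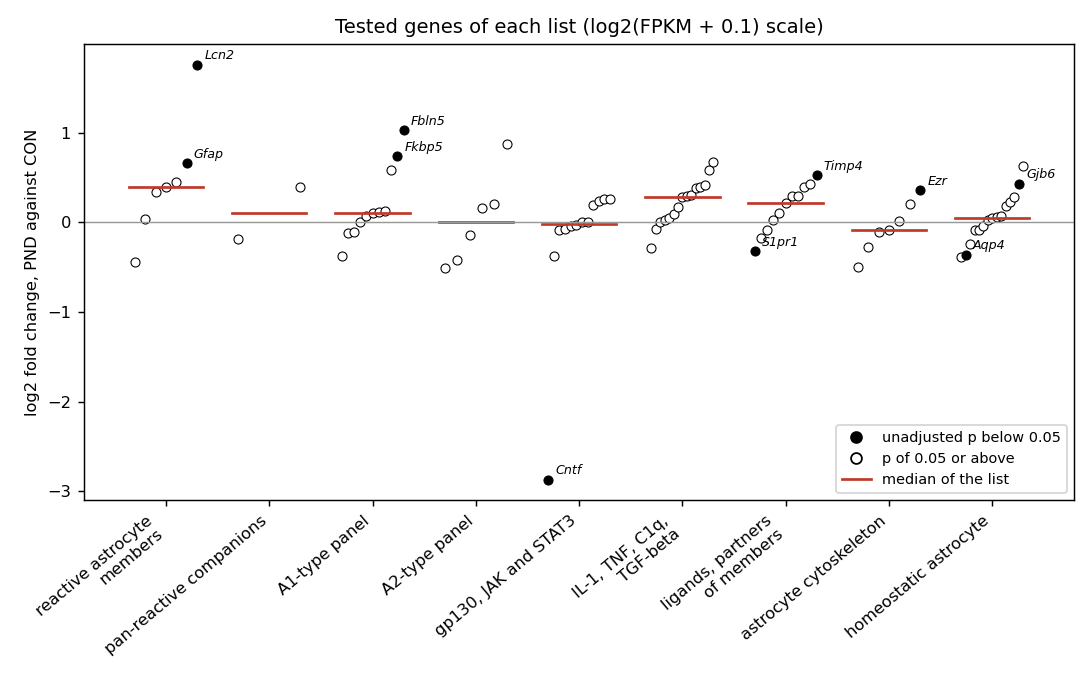
Log2 fold change of PND against CON (vertical axis) for each tested gene of the reactive astrocyte panel, of 7 related lists and of the homeostatic astrocyte list (horizontal axis), with a bar at the median of each list and filled circles for an unadjusted p below 0.05. The medians run from -0.09 for the cytoskeleton list to 0.39 for the reactive astrocyte panel, and the lowest point is Cntf at -2.87.

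Several members are also made by vascular cells, microglia, leukocytes and ventricular cells, so the markers of these cells are given beside them. The endothelial markers summed to between 34.2 and 43.4 FPKM in PND and between 30.9 and 34.7 FPKM in CON. Of the 10, 1 passed the test, Ly6c1, with 7.11, 5.99 and 4.27 FPKM in PND and 3.20, 3.35 and 3.12 FPKM in CON (log2 fold change 0.79, unadjusted p 0.00568). The longest Ly6c1 transcript shares 36.7% of its stretches of 50 bases with Ly6a or Ly6c2, and how reads were divided between them was not tested. The median of the list was 0.08, and it was -0.13 without CON replicate 1. The mural and fibroblast markers summed to 16.2 to 23.6 FPKM in PND and 15.8 to 23.2 FPKM in CON, with 0 of 11 past the test in limma. The microglia markers summed to 44.9 to 52.0 FPKM in PND and 48.2 to 57.9 FPKM in CON. Of the 10, 5 had a log2 fold change above 0 and 5 below, with a median of 0.01, and 1 had an unadjusted p below 0.05. C1qa (0.59), Tmem119 (0.52) and Cx3cr1 (0.15) had values above 0 and did not pass. The called marker, P2ry12, a receptor of resting microglia, had 4.61, 7.06 and 4.79 FPKM in PND and 10.7, 9.47 and 7.68 FPKM in CON and fell by 0.76 on the log2 scale (unadjusted p 0.00767). The choroid plexus markers summed to 32.0 to 37.9 FPKM in PND and 32.8 to 37.4 FPKM in CON, mostly from Enpp2, which oligodendrocytes also make. Of the 5 that were tested, 4 had a log2 fold change above 0 (Kl 0.34, Prlr 0.53, Clic6 0.80 and Sostdc1 1.38) and Enpp2 had -0.08, with a median of 0.53, beside 0.39 for the reactive astrocyte panel. That median was 0.14 with a pseudocount of 1, 0.88 with voom and 0.22 without CON replicate 2. Clic6 had an unadjusted p of 0.0319. Sostdc1 had an unadjusted p of 0.0119 on an estimated 13.2 fragments in PND against 2.0 in CON, and it passed the filter only through its PND values, so that its p is no support for a difference. The markers Ttr, Folr1, Kcne2, Aqp1 and Otx2 were below the filter. The ependymal markers summed to 1.90 to 3.06 FPKM in PND and 1.93 to 2.95 FPKM in CON, with 0 of 6 past the test in limma. White matter astrocytes hold more Gfap than those of the cortical layers, and the oligodendrocyte and white matter markers summed to 329 to 409 FPKM in PND and 381 to 417 FPKM in CON, with a median log2 fold change of -0.16. It was -0.31 without CON replicate 1 and -0.071 without CON replicate 2. Of its 10 genes, 7 had a log2 fold change below 0 and 3 above, and 1 had an unadjusted p below 0.05, Opalin (-0.78, unadjusted p 0.0291). The part of any of these in the levels of the members was not tested.

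The genes whose pattern over the 6 samples was most like that of Gfap were found by Pearson correlation of log2(FPKM + 0.1) among 12311 other genes averaging 1 FPKM or more. They were Tmsb4x (r = 0.993), Chst10 (0.986), Fam107a, Mas1 and Ncam1 (0.982 each). Their means in PND and CON were 50.1 and 45.1 FPKM for Tmsb4x, 2.70 and 2.14 FPKM for Chst10, and 63.5 and 39.7 FPKM for Fam107a. They were 1.34 and 0.960 FPKM for Mas1 and 33.9 and 29.1 FPKM for Ncam1. For Serpina3n they were Thsd7b (r = 0.998), Os9 (0.997), Rps21 (0.995), Eif3f (0.994) and Spint2 (0.993). These were picked as the highest of so many genes over only 6 samples, so high values were bound to be listed. How high such values come without any relation was not tested. Levels also moved with GC content between samples, as described above, and its part in these correlations was not tested. Among the members themselves, Gfap had a correlation of 0.74 with Osmr, 0.73 with Serpina3n and 0.19 with Vim. Cd44 was negative with Gfap (-0.54) and Osmr (-0.75). Lcn2 was listed at 0 in every CON sample, so its correlations with Osmr (0.97), Gfap (0.86) and Cd44 (-0.78) largely restate the group split. These describe the same 6 samples as the group comparison and carry no test.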

How the data were processed

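mRNA was measured in the prefrontal cortex of 6 mice, 3 PND and 3 CON, grouped by the treatment label. Per the methods of the study, ribosomal RNA was removed, reads were filtered with Seqtk and aligned with HISAT2, and fragments per gene were counted with StringTie. The authors scaled them by TMM and deposited FPKM. The submitters' processing notes also name Bowtie 0.12.2 and the builds mm8 and mm9, with no role. The build and annotation behind the FPKM were not given in the sources used here, nor was the use of strand.

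Symbols were matched by Ensembl identifier (20866 of 21006). GENCODE M21 on GRCm38 gave coordinates, exon lengths and the GC content of the longest transcript of each gene, which are therefore not the authors' own. The groups were compared with limma 3.58.1 in R 4.3.3 (lmFit, then eBayes with trend) on log2(FPKM + 0.1), for genes averaging 0.1 FPKM or more, with no covariate and Benjamini-Hochberg adjustment. Fragments were estimated from steps in FPKM times exon length, where 41.3% to 44.8% of low values lay within 0.05 of a whole number, so they are approximate. GC correction was a loess fit (span 0.3) of each sample's deviation on GC content. The fit was tested only on simulated large changes in genes averaging 1 FPKM or more, with no GC dependence. That says nothing about smaller changes or lower genes. The members, the lists and the tests were chosen with earlier results of these data known. Named genes were all members, the genes of each list with an unadjusted p below 0.05 (for pathway lists without one, the smallest p), and the 5 genes most like Gfap and Serpina3n. Other genes were named after their values were seen. Same-numbered samples did not deviate together (correlations of -0.0487, -0.451 and 0.0274), so the replicate block was an alternative only. Alternatives were other pseudocounts, filters and scalings, GC correction, the block, voom on estimated fragments, levels relative to homeostatic astrocyte genes and leaving out each sample.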

Additional observations from a re-analysis of the deposited data

How the results depend on the processing

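The number of members with an unadjusted p below 0.05 was 2. It was 1 when only genes averaging 1 FPKM or more were tested, because Lcn2 was then left out, and it was between 2 and 3 when 1 sample was left out, the third being Serpina3n without CON replicate 2. Without the intensity trend it was 3, with Osmr added. The member past the cut-off of the study, Lcn2, made a count of 1, which was 0 with a pseudocount of 1 and 0 under that stricter filter, and which was 1 in each fit without a sample. Over all genes the count past that cut-off was 241, against 25 with a pseudocount of 1, 59 under the stricter filter and between 240 and 402 when 1 sample was left out, the highest without CON replicate 2. Gfap kept its direction and an unadjusted p below 0.05 in all 13 alternatives with all samples (log2 fold change 0.59 to 0.68, p from 0.00157 to 0.0166) and in all 6 fits without a sample (0.56 to 0.80, p from 0.000852 to 0.015). With the replicate number as a block, the pairing changed no call of a member, 2 had an unadjusted p below 0.05 (Gfap 0.0133, Lcn2 0.0123) and 226 genes passed the cut-off of the study. The block on GC-corrected values gave 2 members too (Gfap 0.00667, Lcn2 0.0206). Vim changed sign relative to homeostatic astrocyte genes (-0.012) and ranged from -0.091 to 0.23 without 1 sample, never past the test. When 1 sample was left out, the list medians ranged from -0.22 to 0.012 (cytoskeleton), 0.026 to 0.16 (A1-type), -0.083 to 0.10 (A2-type), -0.09 to 0.044 (gp130), 0.12 to 0.34 (IL-1, TNF, C1q and TGF-beta), -0.005 to 0.30 (ligands and partners), -0.031 to 0.13 (homeostatic), -0.13 to 0.25 (endothelial), -0.12 to 0.17 (microglia), -0.16 to 0.046 (mural and fibroblast), 0.22 to 0.78 (choroid plexus), -0.047 to 0.21 (ependymal), -0.31 to -0.071 (oligodendrocyte and white matter), -0.029 to 0.10 (neuron) and -0.041 to 0.19 (pan-reactive companions). With 3 animals a group and few fragments, the values of Lcn2, Steap4 and Aspg are limited by depth, and S1pr3 had the largest SE of the tested members (0.45).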
